A study of Homo sapiens with 2 samples.

Results

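The ES7L region of human 28S rRNA was taken as the 876 nt that lie between positions 435 and 1312, a rule on position that uses no read count, although the region itself was picked with earlier results of these data known. Of these, 332 positions were listed, out of 3357 listed positions of 28S rRNA and 5047 of 18S and 28S rRNA together. A position was listed when at least 1 library had 5 or more reads there. Both libraries came from A549, an adherent human lung carcinoma epithelial line. Cells of the control library received the transfection reagent Lipofectamine alone, and cells of the treated library received 1 µg/mL poly I:C, an artificial double-stranded RNA, with the same reagent for 1 h. Total RNA was ligated to an adapter by RtcB, a ligase that accepts RNA ends with a cyclic phosphate. Each read thus reports a fragment end that RtcB accepts, and the kind of phosphate at that end was not checked. Each condition was 1 library of 1 cell line, no difference below has a replicate check, and no test between conditions was possible.

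Expansion segments are stretches of eukaryotic rRNA that are inserted into the core shared with bacteria. ES7L, in domain II of 28S rRNA, is among the longest of them in humans, rich in G and C, and lies on the outer surface of the large ribosomal subunit. Double-stranded RNA activates oligoadenylate synthetases, whose products activate RNase L, an endoribonuclease that cuts single-stranded RNA mostly after UA and UU and leaves a cyclic phosphate. Other RNases and chemical hydrolysis leave the same end, and no sample lacking a nuclease was among those analysed. No 28S rRNA sequence was used here. The placement in ES7L therefore rests on the position numbers, and the sources used here do not name the reference behind them. The 5 annotated copies of 28S rRNA run from 5054 to 5077 nt, so the same number can fall on slightly different places in different copies.

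The ES7L region held a larger share of the reads after poly I:C. It had 54934 reads in the control library and 153022 in the treated library. These were 1.78% (95% exact binomial interval 1.77 to 1.80) of the 3079346 listed control reads and 4.07% (4.05 to 4.09) of the 3764202 listed treated reads. The treated over control ratio of the shares was 2.28 (95% counting interval 2.26 to 2.30). The reads were amplified and no molecular identifier is described, so all intervals cover counting error of reads only.

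The additional share lay at few positions. Position 1056 alone accounted for 73429 of the treated reads, or 48.0% of those in the region. Without it the region held 1.78% of the control reads and 2.11% of the treated reads, a ratio of 1.19 (1.17 to 1.20). Without the 21 positions that were at least 10-fold higher after poly I:C, described below, the shares were 1.76% and 1.34%, and the ratio turned to 0.758 (0.749 to 0.768). That last ratio leaves out positions by their own values and only describes how the reads were divided. The ratio of the whole region also depends on its bounds and on the most frequent sites. It was 1.49 with the bounds moved out by 50 nt and 1.22 when the 10 most frequent positions of either library, over 18S and 28S rRNA, were left out.

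**Figure D1:**
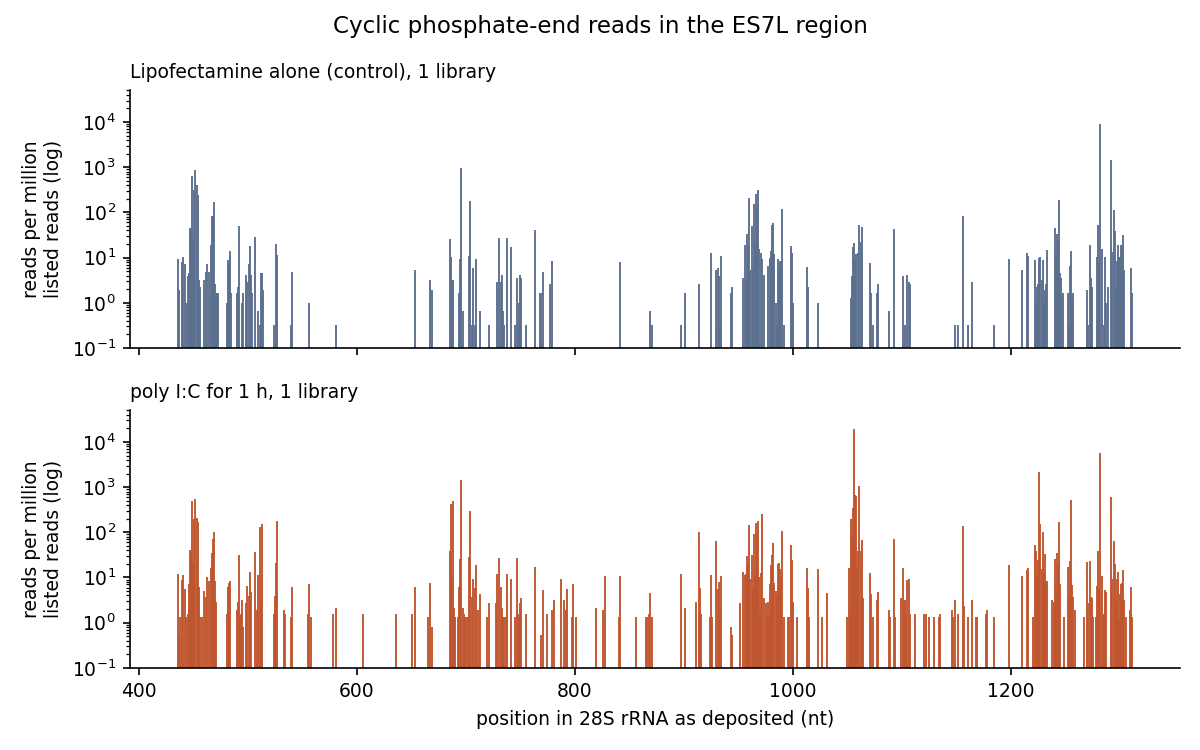
Reads per 1000000 listed reads (log axis) at each listed position of the region, in the control library (top) and the treated library (bottom). A line stands for 1 position and positions with 0 reads are not drawn. The tallest control line is position 1282 and the tallest treated line is position 1056.

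The reads were divided differently over the ends and the interior of the region. In the control library, the first and last 50 nt together held 42521 reads, 77.4% of the region, while the 776 nt between them held 12413. In the treated library the ends held 32568 reads, 21.3% of the region, and the interior held 120454. The interior thus had a ratio of 7.94 (7.79 to 8.09), whereas the ratio was 0.668 (0.648 to 0.689) in the first 50 nt and 0.615 (0.605 to 0.625) in the last 50 nt. These sums rest on few sites. The ratio of the interior was 3.12 (3.05 to 3.18) without position 1056 and 1.23 (1.21 to 1.26) without the 21 positions at least 10-fold higher, which were left out by their own values. The last 50 nt had 5747 control and 3426 treated reads without position 1282, a ratio of 0.488 (0.467 to 0.509). Outside the bounds the ratio was 0.806 (0.797 to 0.815) in the 50 nt up to position 435 and 0.892 (0.859 to 0.927) in the 50 nt from position 1312 on.

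Positions were also listed more sparsely in the interior than at the ends and just outside. In the interior 260 positions were listed, 33.5% of its length, against 100% of the 50 nt before the region and 96.0% of the 50 nt after it. The first and last 50 nt of the region were listed at 74.0% and 70.0%. Another stretch with few control reads, positions 3064 to 3939, was listed at 47.0%. Listing needs 5 reads, so these shares depend on how many reads a stretch holds. The interior had 12413 control reads and the 50 nt before the region 59087. The 3 windows of 50 nt with the fewest listed positions were consecutive, from 536 to 685, where 15 of 150 positions were listed, with 132 control reads and 305 treated reads in all. The longest unlisted run had 29 nt, from position 607 to 635. At the bounds themselves, the last position inside had 5 reads in each library, and position 1312 just outside had 38 control and 45 treated reads. On the other side, the first position inside had 29 control and 45 treated reads, and position 435 just outside had 250 and 352.

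In windows of 50 nt, laid from the region's start and with at least 100 reads over both libraries, 9 of 17 were at least 2-fold higher after poly I:C, against 18.2% of all such windows of both rRNAs. Of these 9, 3 had under 50 control reads and passed the minimum through their treated reads, and 1 of the 3 had 0 control reads at its listed positions and was counted with 3 in their place. With a minimum of 50 control reads instead, chosen after seeing the data, 6 of 14 windows were at least 2-fold higher, against 14.5%. At least 2-fold lower were 1 of 17, against 2.19%. Reads at unlisted positions are not in these sums. The window from 1036 to 1085 had 656 control reads and 85443 treated reads, a ratio of 107 (98.7 to 115). The window from 1186 to 1235 had 321 and 10009 reads, a ratio of 25.5 (22.8 to 28.6). Away from the ends, the 2 windows with the most control reads were 686 to 735, at 3773 control and 10777 treated reads, and 936 to 985, at 4397 and 4651, where the ratio was 0.865 (0.830 to 0.902). The lower window was the last 26 nt, from position 1286 on, with 5401 and 2959 reads and a ratio of 0.448 (0.428 to 0.469).

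**Figure D2:**
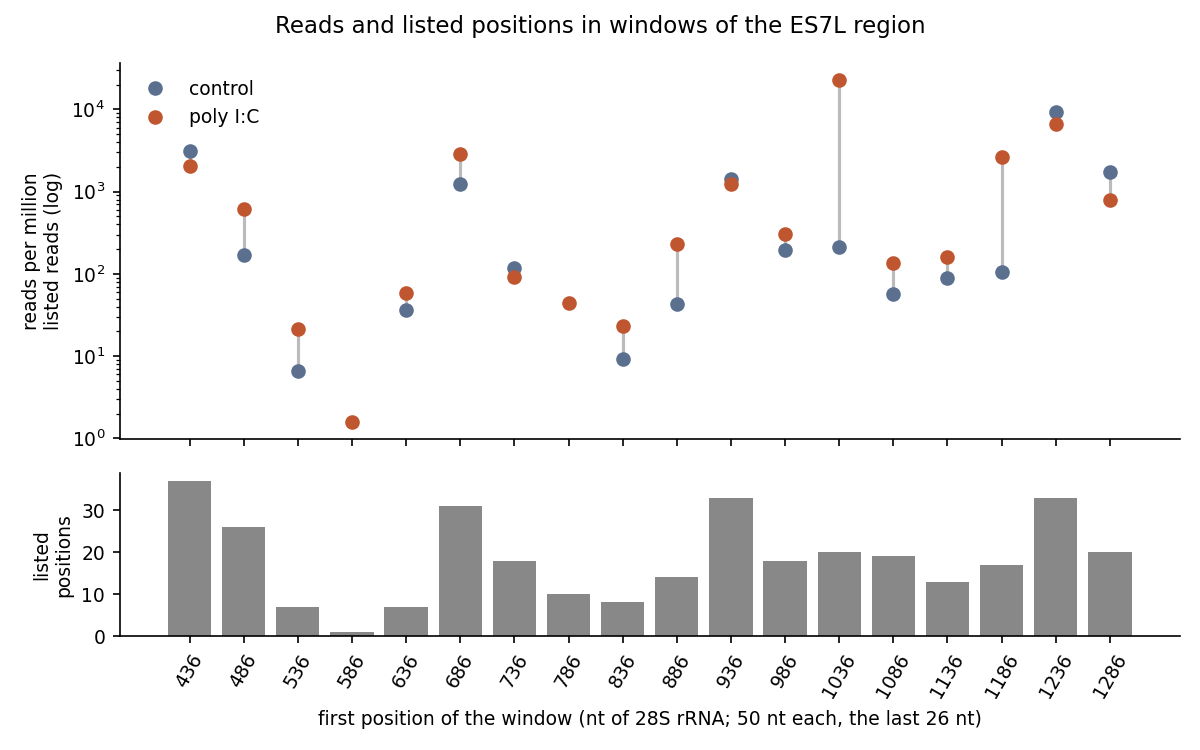
Top, reads per 1000000 listed reads (log axis) in each window of the region for the control and the treated library, joined by a line; the windows starting at 586 and 786 had 0 control reads and show no control point. Bottom, the number of listed positions in each window. The widest gap between the libraries is in the window that starts at 1036.

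Single positions were compared where both libraries together had at least 100 reads, which 83 of the 332 listed positions had. They held 96.3% of the region's control reads and 97.2% of its treated reads, and the other 249 positions together had 2050 control and 4305 treated reads. Counts were scaled to reads per 1000000 listed reads before the ratio was taken. Of the 83, 30 had a ratio of at least 2, against 8.18% of all 2750 compared positions. At least 10-fold higher were 21, against 2.84%, and 5 had a ratio of at most 0.5, against 10.1%. The median log2 ratio was 0.08 in the region and -0.31 over all compared positions. These counts lean on the read minimum, because 26 of the 30 higher positions had under 50 control reads and passed through their treated reads. With a minimum of 50 control reads instead, a choice made after seeing the data, 4 of 58 positions (6.90%) were at least 2-fold higher, against 4.32% of all positions, and 3 (5.17%) were at least 10-fold higher, against 0.726%. With that minimum 7 of 58 had a ratio of at most 0.5, against 324 of all 2617. The median log2 ratio then was -0.42 in the region and -0.39 over all positions. The 4 were positions 998, 1055, 1056 and 1061. The last 3 were those at least 10-fold higher. They lie within 6 nt of each other, so the 10-fold count at this minimum rests on the surroundings of position 1056 alone.

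**Figure D3:**
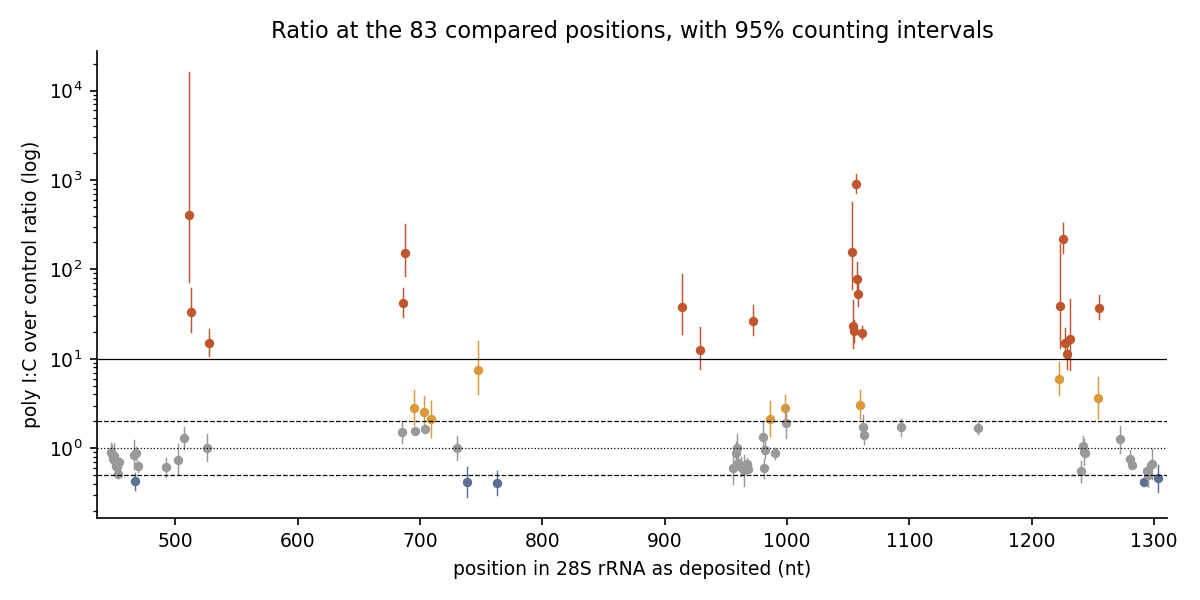
Treated over control ratio (log axis) at the 83 compared positions of the region, with 95% counting intervals as vertical lines. The solid line marks a ratio of 10, the dashed lines 2 and 0.5, and the dotted line 1. The 21 positions above the solid line stand in 9 groups along the region, and position 1056 is the highest.

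The 21 positions at least 10-fold higher fell into 9 clusters when positions at most 10 nt apart were joined, and 5 of the clusters were a single position. In all they had 646 control reads and 102703 treated reads, which were 1.18% and 67.1% of the region's reads in the respective library. The control reads at each ran from 1 to 163 with a median of 27, and the treated reads from 123 to 73429 with a median of 761. The region thus held 35.0% of the 60 positions of 28S rRNA that were at least 10-fold higher, and 5.00% of the 1660 compared positions of 28S rRNA. Most of the 21 had under 50 control reads and passed the read minimum through their treated reads, so the minimum affects both shares. With a minimum of 50 control reads instead, 3 of 58 positions in the region were at least 10-fold higher. In the rest of 28S rRNA 9 of 1507 were. With the minimum on reads of both libraries together, 21 of 83 positions (25.3%) in the region were at least 10-fold higher. Other stretches of the same length also held such positions, at lower shares. Positions 3064 to 3939 had 16 of 200 (8.00%), which held 46.1% of the treated reads there. Positions 2188 to 3063 had 15 of 283 (5.30%). The count was 5 of 397 in positions 3940 to 4815, and 1 of 408 in positions 1312 to 2187.

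The cluster at 1053 to 1061 was the largest. Its 7 members had 360 control reads and 84655 treated reads, a ratio of 192 (173 to 214) and 55.3% of the region's treated reads. Position 1056 had 66 control reads, 21.4 per 1000000 listed reads, and 73429 treated reads, 19507 per 1000000. The ratio was 910 (715 to 1177), and the unscaled fold in the authors' deposited table was 1104. It ranked 1407 among 28S positions by control reads and 5 by treated reads.

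The neighbours of position 1056 were higher as well. Position 1057 had 26 control and 2510 treated reads, a ratio of 79.0 (53.8 to 121). Position 1058 had 37 and 2405, a ratio of 53.2 (38.5 to 75.7). On the other side, position 1053 had 4 and 761 reads, a ratio of 156 (60.5 to 573), and position 1055 had 52 and 1297, a ratio of 20.4 (15.5 to 27.5). Summed over 5 nt, the positions before 1056 had 68 control and 2466 treated reads and those after it 265 and 9038, with ratios of 29.7 (23.3 to 38.3) and 27.9 (24.7 to 31.6). As sums, both sides of the site thus had more treated than control reads, by similar ratios. The sum after it includes position 1061, with 163 control and 3914 treated reads. Single neighbours differed more. Position 1060, picked with its values in view, had 39 and 145 reads, a ratio of 3.04 (2.12 to 4.45).

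Within the treated library position 1056 was a sharp maximum, and its larger neighbour at 1 nt held 3.42% as many reads. In the control library it was no maximum: position 1061 had 163 reads there, more than the 66 at 1056. After poly I:C position 1061 had 3914 reads, a ratio of 19.6 (16.8 to 23.1). Beyond it the difference became small, with 67 control and 142 treated reads at position 1062 and 148 and 251 at position 1063, ratios of 1.73 and 1.39. Positions 1062 and 1063 were picked with their values in view.

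**Figure D4:**
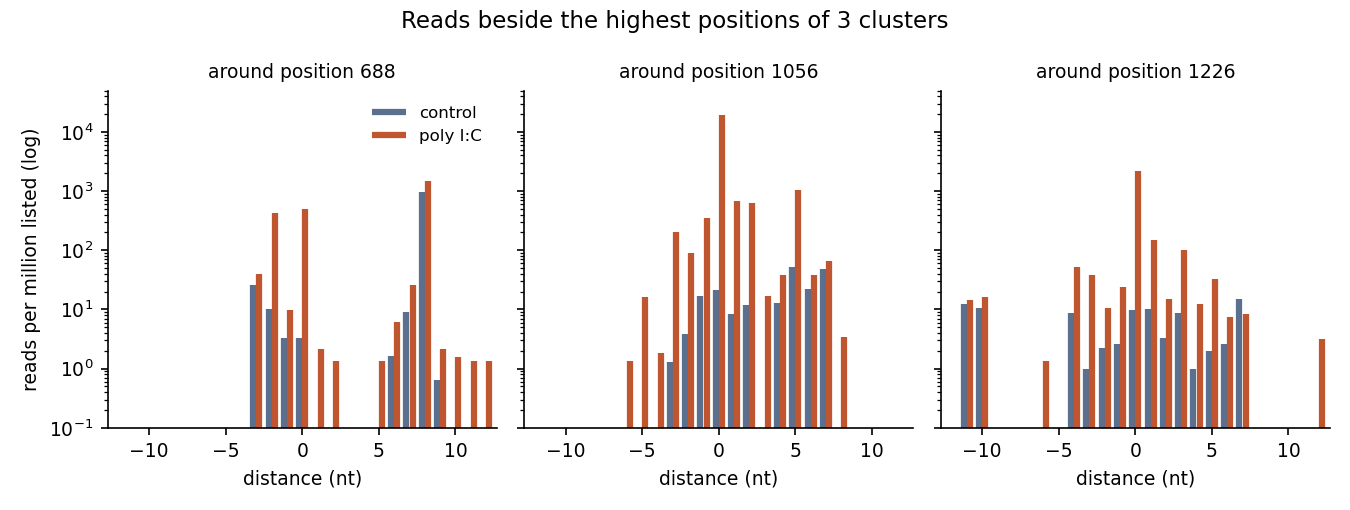
Reads per 1000000 listed reads (log axis) within 12 nt of positions 688, 1056 and 1226 in the control and the treated library; the horizontal axis is the distance in nt and positions with 0 reads show no bar. Position 1056 stands at 21.4 reads per 1000000 in the control and 19507 in the treated library, and position 696, at a distance of 8 nt in the left panel, is tall in both libraries.

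The second cluster by reads lay at 1223 to 1231. Its 5 members had 97 control and 9286 treated reads, a ratio of 78.3 (64.1 to 96.7). Most of these were at position 1226, with 30 control and 8074 treated reads and a ratio of 220 (154 to 327). Here too the site was a maximum in the treated library, with 7.05% as many reads at the larger neighbour. In the control library position 1227 had 31 reads, about as many as 1226. The remaining members, 1223, 1227, 1229 and 1231, had from 3 to 31 control reads and from 123 to 569 treated reads, with ratios from 11.4 to 39.3.

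Position 1255, which lies 29 nt further on, had 44 control and 2004 treated reads, a ratio of 37.3 (27.7 to 51.4). Another 27 nt on stood position 1282, the most frequent control site of the region. It had 27311 control reads, 49.7% of the region, and 21411 treated reads, 14.0% of the region. Its ratio was 0.641 (0.630 to 0.653), so it lay on the other side of 1 from positions 1226 and 1255. Position 1282 was sharp in both libraries, with 0.176% as many control reads and 0.191% as many treated reads at its larger neighbour. At position 1292 the counts were 4445 and 2294, a ratio of 0.422 (0.401 to 0.444), the second lowest of the 83 compared positions.

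Sites with very different ratios also lay close together near position 696. This site had 2936 control and 5529 treated reads, a ratio of 1.54 (1.47 to 1.61). Position 688, 8 nt before it, had 10 control and 1887 treated reads, a ratio of 154 (83.8 to 322). Position 686 had 31 and 1579, a ratio of 41.7 (29.2 to 61.5). In the control library 696 thus exceeded both by far, and in the treated library they had come within the same order of size.

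The other clusters were small. Position 511 had 1 control and 499 treated reads, a ratio of 408 (72.9 to 16155) that rests on that 1 control read. Its companion at 513 had 14 and 575 reads, a ratio of 33.6 (19.9 to 61.8). Position 527 had 36 and 658, a ratio of 15.0 (10.7 to 21.5). Between the clusters at 686 and 1053 lay position 914 with 8 and 373 reads, position 929 with 16 and 247, and position 972 with 29 and 940, at ratios of 38.1 (19.2 to 89.0), 12.6 (7.62 to 22.4) and 26.5 (18.3 to 39.8). Between 527 and 686 only position 685 had enough reads to be compared, with 80 and 147 reads and a ratio of 1.50 (1.14 to 2.00).

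Among the compared positions, lower ones were few and moderate. Besides 1292 they were position 763 at 126 control and 63 treated reads, position 738 at 85 and 44, position 467 at 256 and 133 and position 1303 at 99 and 56. Their ratios ran from 0.409 (0.297 to 0.558) at 763 to 0.463 (0.327 to 0.649) at 1303. Scaling by the median ratio of all compared positions multiplied every ratio by 1.24 and left 0 of the 83 at or below 0.5, so the lower counts depend on the scaling. They also depend on the read minimum. With at least 50 control reads, 7 of 58 positions were lower, against 324 of 2617 over both rRNAs. Near the start of the region, the control-rich positions 449 and 452 had 1978 and 2744 control reads and 1813 and 2078 treated reads, with ratios of 0.750 (0.703 to 0.800) and 0.620 (0.585 to 0.656).

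In both libraries 2 positions held 50% of the region's reads, but not the same ones. In the control library 1282 and 1292 led, and in the treated library 1056 and 1282. The 10 most frequent positions held 80.3% of the region's control reads and 80.8% of its treated reads, with 4 positions shared between these lists.

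The region was set beside consecutive segments of 28S rRNA of the same length, laid from its end, and beside 18S rRNA, using all listed reads with no read minimum. Its ratio of 2.28 was above the 0.683 of positions 1312 to 2187, the 0.718 of positions 2188 to 3063 and the 1.03 of positions 3940 to 4815. The nearest was positions 3064 to 3939 at 1.80 (1.78 to 1.82), followed by 18S rRNA as a whole at 1.46 (1.46 to 1.47). This order rests on single sites. With the most frequent treated position of each left out, a comparison added after seeing the data, positions 3064 to 3939 had a ratio of 1.38 (1.37 to 1.39), 18S rRNA 1.21 (1.21 to 1.21) and the ES7L region 1.19 (1.17 to 1.20). Without the 10 most frequent positions of either library, positions 3064 to 3939 were at 1.85 (1.84 to 1.87), against 1.22 (1.21 to 1.24) in the ES7L region. That rule left out 1 position of the ES7L region, 1056, and 0 of positions 3064 to 3939. The ratio of the latter thus changed only through the scaling, by a factor of 1.03. The rule repeats the omission of position 1056 and is no separate check. The ES7L region and positions 3064 to 3939 both held few control reads, 54934 in the ES7L region and 69259 in positions 3064 to 3939, against 517609 to 875344 in the other 3 full segments. All other listed 28S positions together had a ratio of 0.824 (0.822 to 0.825). No test of these differences was possible with 1 library per condition.

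**Figure D5:**
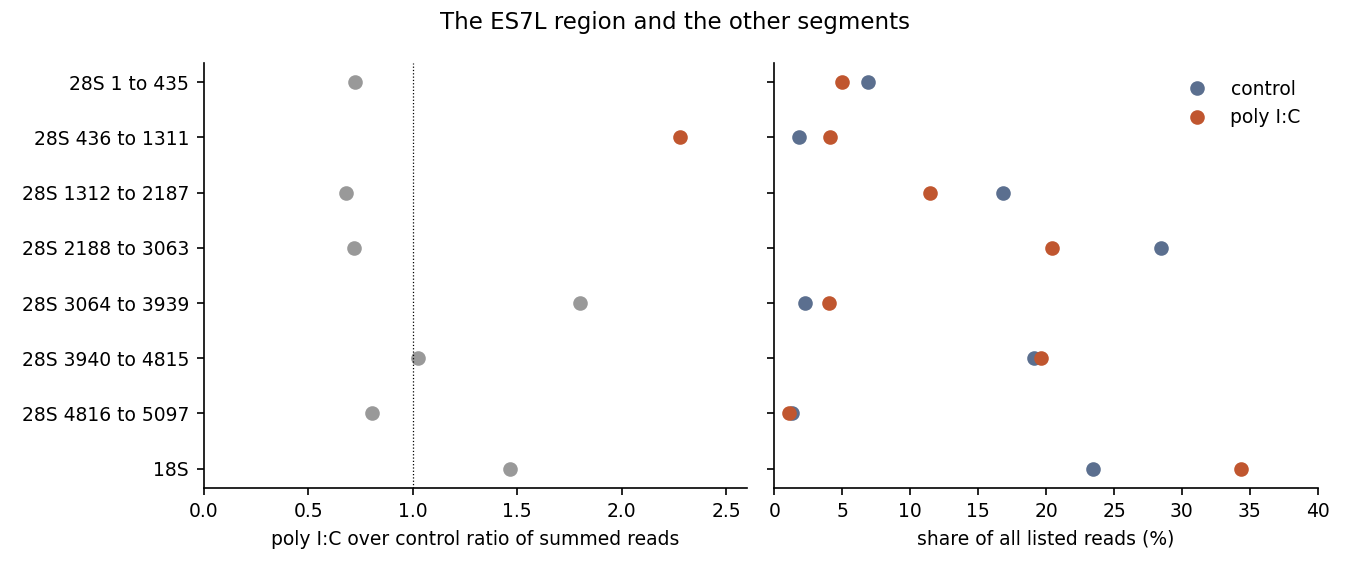
Left, treated over control ratio of the summed reads in the ES7L region (orange), in other segments of 28S rRNA and in 18S rRNA, with 95% counting intervals that are mostly narrower than the points; the dotted line marks 1. Right, the share of all listed reads in percent for both libraries. The region is at 2.28, the highest point shown, on small shares of 1.78% and 4.07%; with the most frequent treated position of each left out it would be at 1.19, below the 1.38 of positions 3064 to 3939.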

How the data were processed

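The deposited values are read counts at positions of 18S and 28S rRNA, per the file headers, from 1 control library (called mock in the labels) and 1 library treated with poly I:C. No scaling or pooling had been applied. The build hg19 appears in the submitters' processing notes. Aligner, counting rules, rRNA reference and the start of the numbering (0 or 1) are not given in the sources. The authors' deposited fold ratio was recomputed as treated reads plus 0.5 over control reads plus 0.5, without deviation in all 28S rows. A position stands for many near-identical gene copies.

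Scaling was to each library's sum over all listed positions (3079346 control and 3764202 treated reads), times 1000000. Whole-library depth is unknown. Ratios carry exact conditional binomial intervals and shares Clopper-Pearson intervals, both at 95% and for counting error only. Against 0 reads at a listed position a floor of 3 reads in that library was used, and the ratio so formed leaves out counting error. Positions and windows with at least 100 reads in all were compared, with size rules of 2, 0.5 and 10 in place of a test. Named positions are the 10 highest and 5 lowest ratios, the 5 most frequent of each library, and all cluster members. The region and these rules were chosen with earlier results of these data known. The calculation of the ratio was tested on simulated counts with planted ratios, counting (Poisson) error only and a known library factor. The simulation had no spread from amplification and no scaling by listed reads, so it does not check the ratios of these data. Alternatives were other scalings, read minimums, thresholds, bounds, windows and cluster gaps. Python 3.11.15, numpy 2.4.6, pandas 2.3.3 and scipy 1.17.1 were used. The planned sequence context was not run.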

Additional observations from a re-analysis of the deposited data

How the results depend on the processing

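The 21 positions at least 10-fold higher were counted again under the 3 other scalings, which also gave 21, as did bounds moved by 50 nt either way; a minimum of 1000 reads gave 9, no minimum and sums with neighbours at 1 nt 34 each, and a minimum of 50 control reads 3. The 30 of 83 positions at least 2-fold higher became 71 of 186 at a minimum of 20 reads, 9 of 22 at 1000 reads, 117 of 332 with no minimum, 59 of 165 with neighbours summed and 4 of 58 with 50 control reads. The 10-fold and lower recounts have the same denominators, with 63 and 152 positions at narrowed and widened bounds. Shares over all positions are given above only for the minimums of 100 reads and of 50 control reads. The other recounts thus do not show whether the region differed from the rest. The 5 lower positions became 0 under scaling by the median ratio and under a 4-fold threshold, 11 at 20 reads, 1 at 1000 reads, 28 with no minimum, 10 with neighbours summed, 2 with narrowed bounds, 1 with a counting interval wholly beyond 2-fold and 7 with 50 control reads. The median log2 ratio became 0.30 when scaled to 28S reads, 0.39 by the median ratio, 0.12 without the 10 most frequent positions of either library, 0.41 at 20 reads, 0.23 at 1000 reads, 0.60 with no minimum, 0.33 with neighbours summed, 0.79 with narrowed and 0.017 with widened bounds, and turned to -0.42 with 50 control reads. The scalings act on every ratio alike, by factors of 1.17, 1.24 and 1.03. All 3 factors are above 1, so the counts of higher positions could not fall under them. The 21 positions run from 511 to 1255, so neither change of the bounds by 50 nt could leave any of them out. These recounts are thus no check on the 21. Read minimums and bounds change which positions are kept, summing neighbours also changes the values, and the 4-fold and interval rules change the criterion on the same 83 positions. The control and treated shares of the region became 2.33% and 6.19% of the 28S reads (ratio 2.66), 3.52% and 4.31% without the 10 most frequent positions of either library (1.22), 0.403% and 3.20% with narrowed bounds (7.94), 3.87% and 5.76% with widened bounds (1.49), 1.78% and 2.11% without position 1056 (1.19), and 1.76% and 1.34% without the 21 positions at least 10-fold higher (0.758), an alternative added after seeing the data, as were the minimum of 50 control reads and all recounts of the 10-fold positions. Of 90 recomputed ratios at the 30 named positions, 77 stayed inside the counting interval, 13 left it and 0 turned direction. They are the 30 ratios times the same 3 scaling factors, so staying inside depends on the width of each interval. None could turn, because the named ratio below 1 and nearest to it, 0.750 at position 449, rose to 0.930 at most. Windows of 25 or 100 nt gave 45.8% and 55.6% of the region's windows higher, against 15.5% and 18.6% in the rest of 28S rRNA. A minimum of 50 control reads gave 42.9% in the region, where the main rule gave 52.9%. Other cluster rules gave from 7 to 10 clusters. No paired analysis was possible because there is 1 library per condition, which also leaves no replicate to omit. The sequence context, planned as an alternative with shifted numbering, was not run because no 28S sequence was used. Depth limits sites with few control reads, such as position 511 with 1.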

Other observations

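Many listed positions of the ES7L region had reads only after poly I:C. At 94 of the 332 listed positions, 28.3%, the control library had 0 reads, against 7.80% of the listed 28S positions outside the region and 14.3% in positions 3064 to 3939, which also hold few control reads. At 10 positions, 3.01%, the treated library had 0 reads, against 2.02% outside the region. Listing needs 5 reads in at least 1 library, so these shares describe the table and depend on how few reads a stretch holds. The 94 positions had from 5 to 64 treated reads with a median of 6, and 846 in all. The most frequent were position 1059 with 64 and position 1051 with 62, bounds of at least 17.5-fold and at least 16.9-fold with 3 control reads as the floor, and both lie within 5 nt of position 1056.

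A stretch of the interior had no control reads at any listed position. In the window from 786 to 835 the 10 listed positions had 0 control and 167 treated reads. The other positions of the window are unlisted and can each hold under 5 reads in either library, so no fold is given. The reads were scattered, with 41 at position 828, 34 at position 787, 27 at position 798 and 21 at position 793, and no position reached the minimum of 100. The positions named here were picked with their values in view.

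Across the 332 listed positions, the libraries' log2 values (reads per 1000000 listed reads, plus 1) had a Pearson's r of 0.760 and a Spearman's rho of 0.758, against 0.882 and 0.896 across the 3025 listed 28S positions outside the region. Positions of 1 library share its depth and are not independent. The 2 sets also differ in reads. The control library had 0 reads at 28.3% of the region's listed positions, against 7.80% outside. Enough reads to be compared were present at 25% of the region's listed positions, against 52.1% outside. Whether the lower coefficients of the region go beyond its fewer reads was not tested.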
